A study of Homo sapiens with 15 samples.

Results

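Transcript levels of 9 genes were followed in human atrial cardiomyocytes in which ATRNL1 had been lowered or raised. The genes were the atrial fate factors NR2F1, NR2F2 and TBX5 and the retinoid pathway genes RARB, ALDH1A2, DHRS9, DHRS3, CYP26B1 and CYP26A1. They were taken by symbol from a table of 58780 genes, and 8 of the 9 passed a filter on low counts that left 24659 genes for testing. The cells came from H7, an established human embryonic stem cell line labelled wt in all groups, and were differentiated as spheroids under atrial induction with 1 nM of the synthetic retinoid TTNPB and 100 nM retinoic acid on day 3, with the retinoids withdrawn on days 4 to 5. Spheroids were collected and dissociated on day 17, and the labels' text on the culture ends there, so when the siRNAs and lentiviruses were applied and when RNA was taken is not known here. There were 15 bulk RNA libraries in 5 groups of 3. In the siRNA arm, cells received siRNA-1 or siRNA-2, which target ATRNL1, or a scramble siRNA. The lentiviral arm held cells given an overexpression lentivirus for the short isoform of ATRNL1 (ATRNL1 lentivirus) or a control lentivirus, and transduced cells were selected with puromycin. All groups therefore share 1 cell line and an early exposure to retinoids, and no group without retinoids was analysed here. Nothing in the labels says that libraries of a group came from separate cultures, and in 4 of the groups the number in 1 sample title joins those of the other two titles, with no word on what that means. The p-values below then measure only the spread between these libraries, which may be technical.

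Retinoic acid is made in cells from retinol, through retinaldehyde. Retinol dehydrogenases, a family to which DHRS9 belongs, carry out the first and reversible step. ALDH1A2 carries out the second, irreversible step, DHRS3 turns retinaldehyde back into retinol, and the CYP26 enzymes break retinoic acid down. Retinoic acid binds nuclear receptors such as RARB, which pair with RXR receptors on DNA, and RARB, CYP26A1 and DHRS3 are themselves well-known targets of the pathway. In the embryonic heart and in stem cell cultures, retinoic acid given at the mesoderm stage favours the atrial over the ventricular fate. NR2F1 and NR2F2 (COUP-TFI and COUP-TFII) are orphan nuclear receptors that act in atrial identity, and TBX5 is a T-box factor of the atria and left ventricle that is mutated in Holt-Oram syndrome.

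Retinoic acid receptors bind pairs of half-sites in DNA. All 9 genes had start-site windows in the RefSeq promoter table (GRCh38.p14, 250 bases before to 50 after each start), 22 windows in all. They were searched on both strands for a direct repeat of the letters GGTCA or GTTCA with 6 bases between the repeats, a match to a DR5. These letters leave out the first base of the full half-site, so each gap given here is 1 base longer than in the name. A DR5 lay in 61 of 35114 windows of all genes (0.174%) and in 2 of the 22 windows, 1 of RARB and 1 of CYP26A1. Repeats with 3 bases (DR2) and with 2 bases (DR1) between them lay in 0.159% and 0.245% of all windows and in 0 of the 22. The windows with a DR5 are shown because they match the letters of a response element of the pathway, with the DR5 in capitals. DHRS3, the gene with the widest range of levels among the 8 tested, had windows with 0, 1 and 2 half-sites. Its window with 1 half-site is shown, with that half-site in capitals. A half-site occurred in 19350 of the 35114 windows (55.1%).
RARB, chr3:25428013-25428312, plus strand: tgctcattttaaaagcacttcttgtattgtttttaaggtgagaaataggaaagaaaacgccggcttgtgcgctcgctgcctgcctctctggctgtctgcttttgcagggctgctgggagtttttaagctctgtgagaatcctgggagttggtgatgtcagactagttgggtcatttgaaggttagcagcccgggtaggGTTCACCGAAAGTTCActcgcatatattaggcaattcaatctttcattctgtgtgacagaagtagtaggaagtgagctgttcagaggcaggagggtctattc
CYP26A1, chr10:93073643-93073942, plus strand: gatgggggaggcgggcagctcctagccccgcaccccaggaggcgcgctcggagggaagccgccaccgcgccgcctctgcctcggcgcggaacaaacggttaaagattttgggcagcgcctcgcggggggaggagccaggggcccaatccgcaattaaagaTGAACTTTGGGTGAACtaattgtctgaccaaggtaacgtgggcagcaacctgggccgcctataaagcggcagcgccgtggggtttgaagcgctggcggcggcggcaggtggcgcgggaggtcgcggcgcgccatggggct
DHRS3, chr1:12616740-12617039, minus strand: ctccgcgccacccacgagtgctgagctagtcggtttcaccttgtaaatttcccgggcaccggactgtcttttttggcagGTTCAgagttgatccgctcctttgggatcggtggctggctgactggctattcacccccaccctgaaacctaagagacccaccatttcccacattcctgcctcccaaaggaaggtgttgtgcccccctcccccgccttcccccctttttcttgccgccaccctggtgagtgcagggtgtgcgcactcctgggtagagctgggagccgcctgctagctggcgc
In the RARB window the repeat read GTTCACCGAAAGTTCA and ended 36 bases before the start. In the CYP26A1 window it lay on the opposite strand of the window, read GTTCACCCAAAGTTCA there, and ended 74 bases before the start. These are matches of letters and not measured binding sites, and counts per gene cannot tell which start was used. A gene with no match in these windows lacks only these letters there.

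Total counts ran from 37078568 to 108663135 per library, and levels below are CPM (counts scaled to a common library total) with TMM-scaled library sizes. Mitochondrial transcripts held 4.10% to 7.79% of counts. Lentiviral and siRNA libraries were separated by the first principal component, which carried 58.4% of the variance. ATRNL1 fell with both siRNAs, with a log2 fold change of -0.74 for siRNA-1 and -1.61 for siRNA-2 against scramble, and it rose by 4.77 with the ATRNL1 lentivirus against the control lentivirus, a value that adds vector reads to those of the cells' own gene. ATRNL1 was also higher in control lentivirus libraries (28.0 ± 1.11 CPM) than in scramble libraries (15.3 ± 1.52 CPM; SD, n = 3 each). The label of atrial cardiomyocytes was checked against markers. The summed level of 8 cardiomyocyte markers ran from 24980 to 38040 CPM and that of 14 atrial markers from 8821 to 16350 CPM. In scramble, TTN (21140 ± 1879 CPM) made up most of the first sum and MYH6 (9355 ± 2084 CPM) most of the second. MYL7, the atrial regulatory light chain, was at 1961 ± 290 CPM with siRNA-1, 2154 ± 62.9 CPM with siRNA-2, 2257 ± 316 CPM in scramble, 2023 ± 79.7 CPM with the ATRNL1 lentivirus and 2590 ± 65.3 CPM with the control lentivirus. Sarcolipin (SLN), another atrial marker, averaged at most 0.208 CPM in any group, and BMP10 did not exceed 0.0530 CPM in any library. NPPA, also an atrial marker, averaged from 41.0 CPM with siRNA-1 to 99.5 CPM with the ATRNL1 lentivirus. Ventricular markers were also present, at a summed 6574 to 17000 CPM. With the ATRNL1 lentivirus their sum (15720 to 17000 CPM) exceeded the atrial sum (8821 to 9271 CPM). The ventricular myosin MYH7 was at 10900 ± 670.5 CPM there and MYH6 at 2925 ± 232 CPM. With the control lentivirus MYH7 (7535 ± 647 CPM) also exceeded MYH6 (4521 ± 84.4 CPM), while the atrial sum was the higher.

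Per kilobase of annotated exons, the order of the 9 genes in scramble libraries was led by TBX5, at 42.5 ± 4.11 CPM per kb (SD, n = 3). DHRS9 (14.3 ± 1.93 CPM per kb), DHRS3 (13.3 ± 2.64), RARB (9.01 ± 0.72) and NR2F2 (7.41 ± 1.03) formed a middle group. CYP26B1 stood at 0.947 ± 0.072 CPM per kb, ALDH1A2 at 0.146 ± 0.016, NR2F1 at 0.129 ± 0.032 and CYP26A1 at 0.0147 ± 0.011. Over the 5 groups, mean levels spanned 5.25-fold for DHRS3, 3.99-fold for DHRS9, 2.72-fold for CYP26B1 and 2.53-fold for ALDH1A2. The span was 1.72-fold for NR2F1, 1.49-fold for RARB, 1.37-fold for NR2F2 and 1.25-fold for TBX5. In bulk RNA, fewer cells of a type and less RNA per cell cannot be told apart, which holds for every value below.

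**Figure D1:**
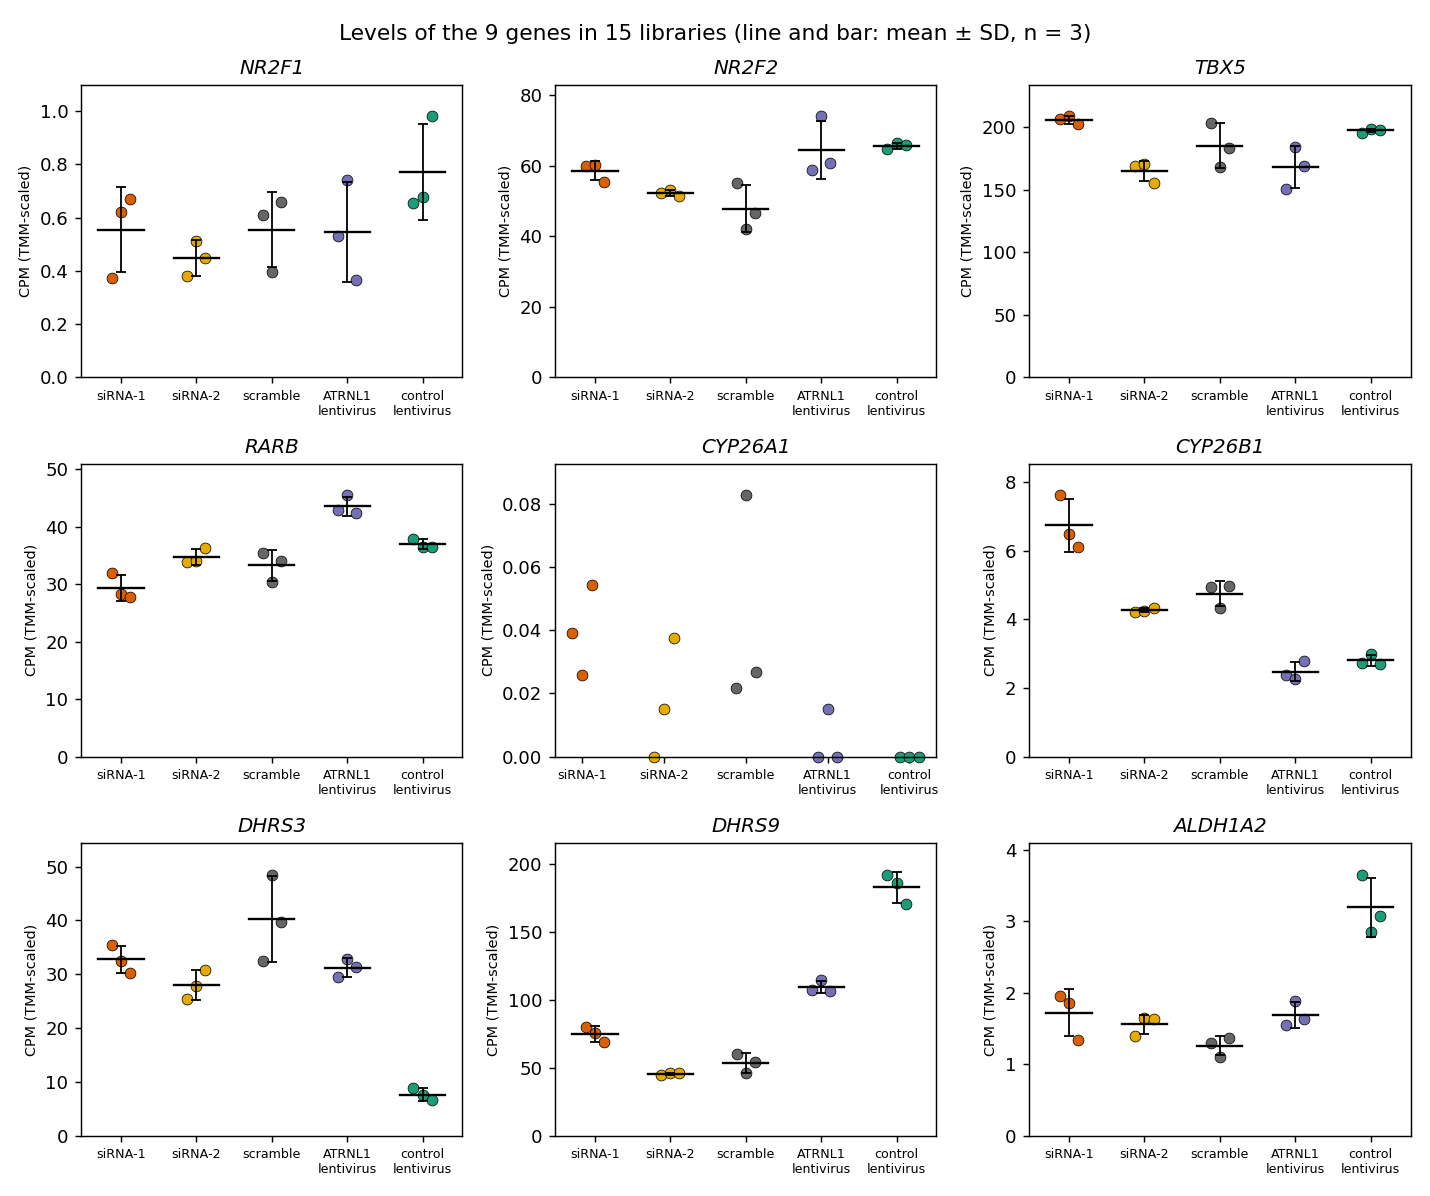
Level of each of the 9 genes (vertical axis, CPM with TMM-scaled library sizes, linear from 0) in the 3 libraries of each group; black lines and bars are the mean ± SD, left out for CYP26A1. The control lentivirus libraries hold the lowest DHRS3 and the highest DHRS9 and ALDH1A2, with 7.67, 183 and 3.19 CPM on average, while NR2F2 and TBX5 stay within narrow ranges.

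Of the atrial fate factors, NR2F2 was higher with siRNA-1 and TBX5 was lower with the ATRNL1 lentivirus, both by small amounts. NR2F1 was detected in every library, at low counts. Each adjusted p below is from the quasi-likelihood test of edgeR, Benjamini-Hochberg adjusted over the 24659 genes, a gene is said to have risen or fallen where it is under 0.05, and SE is the standard error of the log2 fold change. NR2F2 (ENSG00000185551.14, GRCh38 chr15:96325938-96340263, plus strand) had 60.1, 60.3 and 55.5 CPM for siRNA-1, 52.4, 53.2 and 51.4 CPM for siRNA-2, and 55.1, 42.0 and 46.5 CPM in scramble. All siRNA-1 libraries were above all scramble libraries, and those of siRNA-2 lay inside the scramble range. NR2F2 rose with siRNA-1 by 0.29 (log2; SE 0.09, adjusted p = 0.0297) and was not called with siRNA-2 (0.13, SE 0.09, adjusted p = 0.35). This rise was close to the threshold, which it missed without siRNA-1 library 1 (0.28, adjusted p = 0.115) or 2 (0.28, adjusted p = 0.12), without scramble library 2 (0.22, adjusted p = 0.189) or 3 (0.28, adjusted p = 0.133), and when the spread came from the siRNA-1 and scramble libraries alone (0.30, adjusted p = 0.0627). It also missed the threshold against scramble library 1 alone (0.089, adjusted p = 0.863) or 3 alone (0.35, adjusted p = 0.0763). NR2F2 had 58.9, 74.1 and 60.9 CPM with the ATRNL1 lentivirus, against 64.9, 66.6 and 65.8 CPM with the control lentivirus. The ATRNL1 libraries lay on both sides of the control libraries, and the log2 fold change was -0.03 (SE 0.09, adjusted p = 0.853). Control lentivirus libraries were above all scramble libraries, by 0.46 (SE 0.09, adjusted p = 4.49e-05), a difference that fell to 0.23 and missed the threshold with scramble library 1 as the only control (adjusted p = 0.0994). These controls differ in delivery and in their level of ATRNL1, which cannot be told apart. Over the 5 groups the order of NR2F2 was control lentivirus, ATRNL1 lentivirus, siRNA-1, siRNA-2, scramble, and among neighbours only siRNA-1 and siRNA-2 had libraries that did not overlap.

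TBX5 (ENSG00000089225.19, chr12:114353931-114408442, minus strand) was at 207, 209 and 202.5 CPM for siRNA-1, 169, 171 and 156 CPM for siRNA-2, and 204, 168 and 184 CPM in scramble. The siRNA-1 values sat around the top of the scramble range and the siRNA-2 values around its bottom. Neither passed the test against scramble, with log2 fold changes of 0.15 (SE 0.08, adjusted p = 0.246) for siRNA-1 and -0.17 (SE 0.08, adjusted p = 0.146) for siRNA-2. Set against each other, TBX5 was lower with siRNA-2 than with siRNA-1 by 0.32 (log2 fold change -0.32, SE 0.08, adjusted p = 0.00679). Without siRNA-2 library 3 this difference was -0.29 and missed the threshold (adjusted p = 0.0562). In the lentiviral arm TBX5 had 151, 184.5 and 169 CPM with the ATRNL1 lentivirus, against 196, 199 and 198 CPM with the control lentivirus. All ATRNL1 lentivirus values were below all control values, and TBX5 fell (log2 fold change -0.23, SE 0.08, adjusted p = 0.0175). The call ended in 5 of the 6 fits that left out 1 library. These were the fits without ATRNL1 lentivirus library 1 (-0.15, adjusted p = 0.135) or 3 (-0.22, adjusted p = 0.0596) and without control lentivirus library 1 (-0.23, adjusted p = 0.0522), 2 (-0.22, adjusted p = 0.0718) or 3 (-0.22, adjusted p = 0.0644). Control lentivirus and scramble libraries overlapped for TBX5 (0.09, SE 0.08, adjusted p = 0.297). Exons of TBX5 share 252 bases with those of TBX5-AS1, an antisense transcript, and the use of strand in counting is not given. TBX5-AS1 itself was at 63.1 ± 0.849 CPM with siRNA-2 and 54.1 ± 2.73 CPM in scramble, and rose by 0.22 (SE 0.07, adjusted p = 0.02), a direction opposite to the uncalled one of TBX5.

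NR2F1 (ENSG00000175745.12, chr5:93583224-93594615, plus strand) had 19 to 74 counts per library. It was at 0.372, 0.62 and 0.671 CPM for siRNA-1, 0.38, 0.513 and 0.45 CPM for siRNA-2, and 0.608, 0.397 and 0.659 CPM in scramble. The lentiviral libraries gave 0.53, 0.741 and 0.366 CPM with the ATRNL1 lentivirus and 0.654, 0.678 and 0.98 CPM with the control lentivirus. All groups that were neighbours in the order of means overlapped, and none of the comparisons passed the test. The standard errors of its log2 fold changes, from 0.29 to 0.32 in the comparisons of 2 groups, were over 3 times those of NR2F2, so differences of the size seen for NR2F2 could not be detected for NR2F1 at this depth. NR2F1 shares 158 exonic bases with its antisense neighbour NR2F1-AS1, which averaged 0.0832 to 0.219 CPM over the groups.

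RARB (ENSG00000077092.18, chr3:25174332-25597932, plus strand), the retinoid receptor whose window carries the DR5 shown above, was higher with the ATRNL1 lentivirus and differed between the siRNAs. It had 42.9, 45.5 and 42.5 CPM with the ATRNL1 lentivirus, against 38.0, 36.5 and 36.5 CPM with the control lentivirus. The lowest ATRNL1 lentivirus library was above the highest control library. RARB rose by 0.24 (log2; SE 0.07, adjusted p = 0.00995), and this call held in all 13 alternatives, with values from 0.21 to 0.27. With siRNA-1 the levels were 32.0, 28.3 and 27.8 CPM, with siRNA-2 34.0, 34.1 and 36.3 CPM, and in scramble 35.5, 30.3 and 34.1 CPM. Both siRNA groups overlapped scramble, with log2 fold changes of -0.18 (SE 0.07, adjusted p = 0.133) for siRNA-1 and 0.06 (SE 0.07, adjusted p = 0.63) for siRNA-2. RARB was higher with siRNA-2 than with siRNA-1 by 0.24 (SE 0.07, adjusted p = 0.0318). That difference missed the threshold without siRNA-1 library 2 (0.21, adjusted p = 0.18) or 3 (0.19, adjusted p = 0.202) and without siRNA-2 library 1 (0.26, adjusted p = 0.0634), 2 (0.26, adjusted p = 0.0746) or 3 (0.20, adjusted p = 0.179), and also with DESeq2 size factors in place of TMM (0.22, adjusted p = 0.0733). Over the 5 groups RARB ran from the ATRNL1 lentivirus at the top through control lentivirus, siRNA-2 and scramble to siRNA-1. The ATRNL1 lentivirus libraries stood apart from those of the control lentivirus. The lowest control lentivirus library (36.46 CPM) was barely above the highest of siRNA-2 (36.31 CPM), and the lower 3 groups overlapped from one to the next. All control lentivirus libraries were above scramble, yet the difference missed the threshold (0.15, SE 0.07, adjusted p = 0.0685). The exons of RARB share 28 bases with TOP2B on the opposite strand.

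Among the enzymes of retinoic acid synthesis, ALDH1A2 and DHRS9 were both lower with the ATRNL1 lentivirus than with the control lentivirus, and the control lentivirus libraries held the highest levels of both in the study. ALDH1A2 (ENSG00000128918.14, chr15:57953424-58497866, minus strand) had 1.55, 1.89 and 1.64 CPM with the ATRNL1 lentivirus, against 3.65, 2.85 and 3.08 CPM with the control lentivirus. No libraries overlapped, and ALDH1A2 fell by 0.92 (log2 fold change -0.92, SE 0.16, adjusted p = 5.57e-05). With the siRNAs, ALDH1A2 had 1.96, 1.86 and 1.34 CPM for siRNA-1 and 1.40, 1.64 and 1.63 CPM for siRNA-2, against 1.303, 1.11 and 1.37 CPM in scramble. The siRNA-1 libraries overlapped scramble (0.43, SE 0.18, adjusted p = 0.147). Those of siRNA-2 did not, yet the difference missed the threshold (0.29, SE 0.17, adjusted p = 0.288). Control lentivirus libraries were above scramble by 1.33 (SE 0.17, adjusted p = 1.19e-07). ALDH1A2 shares 354 exonic bases with AQP9 and 209 with ALDH1A2-AS1, both on the opposite strand. The epicardium is a known site of ALDH1A2 expression, so its markers are given beside these values. Their summed level was 27.4 to 32.5 CPM with the ATRNL1 lentivirus and 13.0 to 13.3 CPM with the control lentivirus, against 66.2 to 67.7 CPM with siRNA-1, 53.2 to 67.7 CPM with siRNA-2 and 49.2 to 57.6 CPM in scramble. KRT19, which other epithelia also express, made up most of these sums, at 19.8 ± 1.29 CPM with the ATRNL1 lentivirus and 7.64 ± 0.522 CPM with the control lentivirus. WT1 stood at 9.06 ± 1.17 CPM with the ATRNL1 lentivirus and 4.41 ± 0.615 CPM with the control lentivirus. TCF21, UPK3B and MSLN did not exceed 0.129 CPM in any library. Of the 5 epicardial markers tested, 2 rose and 0 fell with the ATRNL1 lentivirus against the control lentivirus. Of all genes, 19.1% rose and 18.0% fell there. In control lentivirus against scramble, 30.3% of all genes rose and 33.2% fell. Of the 5 markers, 3 rose in that comparison, WT1 among them (0.47, SE 0.14, adjusted p = 0.00612). BNC1 and ITLN1 rose at low levels, from 0.228 to 0.494 CPM and from 0.120 to 0.327 CPM on average, and the BNC1 libraries overlapped. KRT19 fell (-2.70, SE 0.10, adjusted p = 8.77e-18), and the median log2 fold change over the 5 was 0.47. The sum and WT1 thus ran in different directions there, and the part of these markers in the level of ALDH1A2 was not tested.

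DHRS9 (ENSG00000073737.16, chr2:169064789-169096167, plus strand) had 107, 115 and 106 CPM with the ATRNL1 lentivirus, against 192, 186 and 170 CPM with the control lentivirus. The ATRNL1 lentivirus values lay between the control lentivirus and all siRNA-arm values. DHRS9 fell by 0.74 (log2 fold change -0.74, SE 0.08, adjusted p = 4.94e-08), to 40.1% below the control lentivirus. In the siRNA arm it had 79.9, 75.8 and 68.9 CPM in siRNA-1 libraries, 44.9, 46.1 and 46.2 CPM in siRNA-2 libraries, against 60.4, 46.0 and 54.3 CPM in scramble. The siRNA-1 libraries were above all scramble libraries, and those of siRNA-2 were at its lower end. DHRS9 rose with siRNA-1 (0.48, SE 0.08, adjusted p = 0.000248), a call that ended only where scramble library 1 was the sole control (0.31, adjusted p = 0.147). With siRNA-2 it missed the threshold (-0.23, SE 0.08, adjusted p = 0.0554). That value passed in 6 of the alternatives, among them without scramble library 2 (-0.33, adjusted p = 0.00446) and with DESeq2 (-0.24, adjusted p = 0.0465). DHRS9 was lower with siRNA-2 than with siRNA-1, with a log2 fold change of -0.71 (SE 0.08, adjusted p = 1.78e-06). The control lentivirus exceeded scramble by 1.77 (SE 0.08, adjusted p = 1.4e-15).

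DHRS3 (ENSG00000162496.8, chr1:12567910-12617731, minus strand), which works against retinoic acid synthesis by reducing retinaldehyde, gave the widest difference of the 8 tested genes. It had 29.4, 32.8 and 31.4 CPM with the ATRNL1 lentivirus, against 8.88, 7.56 and 6.56 CPM with the control lentivirus. Every ATRNL1 lentivirus library was over 3 times as high as every control library. DHRS3 rose 4.05-fold (log2 fold change 2.02, SE 0.12, adjusted p = 1.12e-12), with 1.94 to 2.14 over 13 alternatives. In the siRNA arm DHRS3 was at 35.4, 32.6 and 30.3 CPM for siRNA-1 and at 25.5, 27.8 and 30.9 CPM for siRNA-2, against 32.5, 48.5 and 39.7 CPM in scramble. The scramble libraries were spread more widely than those of the siRNAs. The siRNA-2 libraries were all below scramble, and those of siRNA-1 overlapped it. DHRS3 fell with siRNA-2 (-0.53, SE 0.11, adjusted p = 0.00106) and missed the threshold with siRNA-1 (-0.30, SE 0.11, adjusted p = 0.093). Set against scramble library 1 alone, the siRNA-2 value missed the threshold (-0.23, adjusted p = 0.349), and the siRNA-1 value passed without that library (-0.41, adjusted p = 0.0051). Control lentivirus libraries were below scramble by 2.39 (log2 fold change -2.39, SE 0.12, adjusted p = 5e-15). The mean of the ATRNL1 lentivirus libraries, 31.2 CPM, thus fell among those of siRNA-1 (32.8 CPM) and siRNA-2 (28.0 CPM), and the control lentivirus stood apart from the other 4 groups.

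Of the CYP26 enzymes, which clear retinoic acid, CYP26B1 was measured and CYP26A1 was at the limit of counting. CYP26B1 (ENSG00000003137.8, chr2:72129238-72148038, minus strand) reached 7.61, 6.49 and 6.11 CPM in the siRNA-1 group and 4.23, 4.24 and 4.33 CPM in the siRNA-2 group, against 4.93, 4.33 and 4.98 CPM in scramble. All siRNA-1 libraries were above scramble. The siRNA-2 libraries were all just below scramble, 4.328 CPM at the highest against 4.332 CPM at the lowest. CYP26B1 rose with siRNA-1 (0.50, SE 0.11, adjusted p = 0.00424) and was not called with siRNA-2 (-0.16, SE 0.11, adjusted p = 0.407). For siRNA-1 the threshold was missed without siRNA-1 library 1 (0.40, adjusted p = 0.0564) and against scramble library 1 (0.45, adjusted p = 0.238) or 3 (0.45, adjusted p = 0.132) alone. Between the siRNAs the difference was -0.66 for siRNA-2 over siRNA-1 (SE 0.11, adjusted p = 0.000304), and it held in all 13 alternatives. CYP26B1 had 2.37, 2.27 and 2.79 CPM with the ATRNL1 lentivirus, against 2.73, 3.00 and 2.71 CPM with the control lentivirus, and these overlapped (-0.20, SE 0.12, adjusted p = 0.23). All lentiviral libraries were below all siRNA-arm libraries, with a log2 fold change of -0.75 for control lentivirus over scramble (SE 0.12, adjusted p = 4.34e-06).

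CYP26A1 (ENSG00000095596.11, chr10:93073475-93077890, plus strand), whose window also carries a DR5, had 2, 1 and 3 counts with siRNA-1, 0, 1 and 2 with siRNA-2, 1, 5 and 3 in scramble, 0, 1 and 0 with the ATRNL1 lentivirus and 0, 0 and 0 with the control lentivirus. It did not pass the filter and was not tested. A count of 0 allows up to 3 counts, which corresponded to 0.0267 to 0.0776 CPM in these libraries and covers counting error only. All counts with the control lentivirus were below those in scramble, by so few counts that no fold is given. In addition, 750 of its exonic bases (25.2%) are shared with ENSG00000285846 on the same strand.

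**Figure D2:**
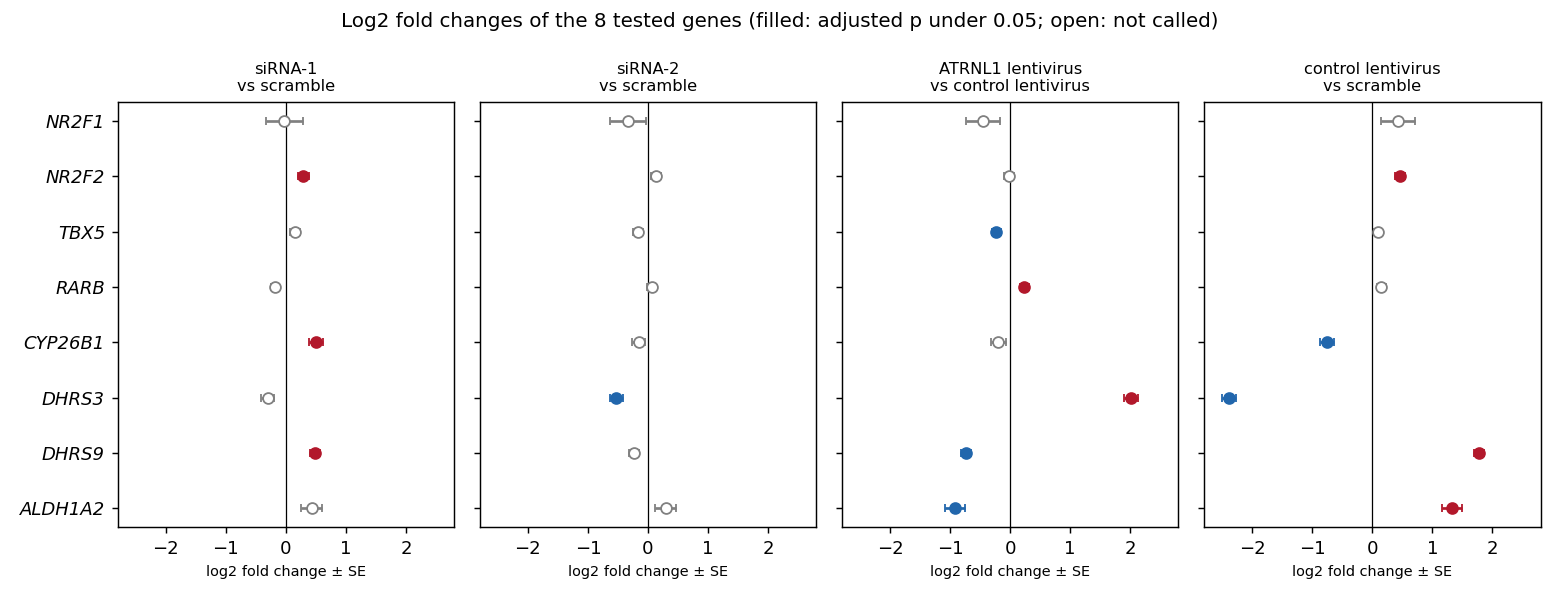
Log2 fold change ± SE (horizontal axis) of the 8 tested genes in 4 comparisons, with filled red points for genes that rose, filled blue points for genes that fell and open grey points for the rest. DHRS3, DHRS9 and ALDH1A2 have opposite signs in the comparison of ATRNL1 lentivirus with control lentivirus (2.02, -0.74 and -0.92) and of control lentivirus with scramble (-2.39, 1.77 and 1.33), which share the control lentivirus libraries.

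By comparison, siRNA-1 against scramble called 3 of the 8 tested genes, all higher (NR2F2, CYP26B1 and DHRS9), where 9.61% of all genes tested were called, 5.85% higher and 3.76% lower. The same 3 genes had libraries that did not overlap those of scramble, as did 28.8% of all genes. For siRNA-2 against scramble it was 1 of 8, DHRS3, which fell, where 18.1% of all genes were called, 9.64% higher and 8.48% lower. Libraries of siRNA-2 and scramble did not overlap for DHRS3, CYP26B1 and ALDH1A2, 3 of 8 genes, and for 36.7% of all genes. No gene among the 8 was called with both siRNAs in this fit, and their effects share the scramble libraries. DHRS3 was lower with both in 4 of 13 alternatives (no filter, limma voom, without scramble library 1, and scramble library 2 as the only control), and NR2F2 was higher with both in 3 (library size only, limma voom, and without scramble library 1). Between siRNA-2 and siRNA-1, TBX5, CYP26B1 and DHRS9 were lower and RARB was higher with siRNA-2, 4 of 8 genes where 10.1% of all genes were called, 4.53% higher and 5.60% lower. With NR2F2, these were the 5 genes whose siRNA libraries did not overlap each other, against 33.9% of all genes. With the ATRNL1 lentivirus against the control lentivirus, DHRS3 and RARB rose and ALDH1A2, DHRS9 and TBX5 fell, 5 of 8 where 37.1% of all genes were called, 19.1% higher and 18.0% lower. Libraries of the ATRNL1 lentivirus did not overlap those of the control lentivirus for these 5 genes, and this was so for 42.9% of all genes. The control lentivirus against scramble called 5 of 8 (NR2F2, DHRS9 and ALDH1A2 higher, DHRS3 and CYP26B1 lower), where 63.6% of all genes were called, 30.3% higher and 33.2% lower. That share, and the 6 of 8 genes without overlap beside 68.5% of all genes, were close to the background. Scaling by library size moved the median of all genes by -0.20 in that comparison, and the uncalled values of TBX5 and RARB changed sign with it, to -0.11 and -0.05.

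The overexpression effect was also tested against the mean of both knockdown effects, over controls that are not shared. It differed for 4 of the 8 genes, where 32.0% of all genes did, 16.5% upward and 15.5% downward. DHRS3 changed by 2.02 with the ATRNL1 lentivirus, against -0.30 with siRNA-1 and -0.53 with siRNA-2, a difference of 2.43 (SE 0.15, adjusted p = 7.92e-12). For DHRS9 the effects were -0.74, against 0.48 and -0.23, and the difference -0.87 (SE 0.11, adjusted p = 5.92e-07). ALDH1A2 gave -0.92, against 0.43 and 0.29, and a difference of -1.28 (SE 0.22, adjusted p = 6.46e-05). For RARB the values were 0.24, against -0.18 and 0.06, and the difference was 0.30 (SE 0.09, adjusted p = 0.0173), which missed the threshold with scramble library 2 as the only control (0.17, adjusted p = 0.325). Of these 4, opposite signs under overexpression and both siRNAs held for DHRS3 and ALDH1A2, although the siRNA values of ALDH1A2 and the siRNA-1 value of DHRS3 had not passed the test.

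The other genes of retinoid supply, binding, reception and response were taken as a list of 57, of which 41 passed the filter. With siRNA-1, 5 of these rose and 1 fell, and their median log2 fold change was 0.02, beside -0.01 for all genes. Of all genes tested, 5.85% rose and 3.76% fell. STRA6, the membrane receptor that takes up retinol, fell (-0.61, SE 0.12, adjusted p = 0.000777), at 14.1 ± 0.528 CPM with siRNA-1 and 21.6 ± 1.23 CPM in scramble. FABP5, a fatty acid binding protein that can also carry retinoic acid, rose by 0.81 (SE 0.19, adjusted p = 0.00712). The others that rose were ADH5 (0.28), RXRA (0.26), RXRG (0.51) and NRIP1 (0.41), the last a corepressor of nuclear receptors. With siRNA-2, 4 rose and 5 fell, with a median of 0.02, where 9.64% of all genes rose and 8.48% fell. CRABP2, which carries retinoic acid to its receptors, rose by 0.54 (SE 0.09, adjusted p = 9.65e-05) and NRIP1 by 0.53 (SE 0.08, adjusted p = 2.12e-05). RDH14 (-0.66, SE 0.08, adjusted p = 2.41e-06) and RDH10 (-0.46, SE 0.10, adjusted p = 0.00155), both retinol dehydrogenases, fell, as did LRAT (-0.36), which esterifies retinol, and the receptor RARA (-0.26). NRIP1 and ADH5 were the genes of this list that rose with each siRNA, in comparisons that share scramble.

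With the ATRNL1 lentivirus against the control lentivirus, 19 of the 41 rose and 7 fell, with a median log2 fold change of 0.20 for these and of 0.0006 for all genes. Of all genes tested, 19.1% rose and 18.0% fell, the shares to set beside each list in this comparison. Receptors and cofactors took the larger part. Of the 14 in that list, RARB among them, 12 rose and 0 fell, with a median of 0.33. RARA had 12.1 ± 1.31 CPM with the ATRNL1 lentivirus and 8.77 ± 0.201 CPM with the control lentivirus (0.46, SE 0.10, adjusted p = 0.00041). RXRG had 9.31 ± 0.375 CPM, against 5.84 ± 0.483 CPM (0.68, SE 0.13, adjusted p = 0.000105). RARG rose by 0.52 (SE 0.18, adjusted p = 0.0238). The same list in control lentivirus against scramble held 3 genes that rose and 7 that fell, with a median of -0.32. In that comparison 30.3% of all genes rose and 33.2% fell, and RARA fell by 1.46 on the log2 scale. Among the 17 supply genes tested, 5 rose and 6 fell with the ATRNL1 lentivirus. RDH10 had 90.4 ± 11.3 CPM with the ATRNL1 lentivirus and 162 ± 6.45 CPM with the control lentivirus (-0.84, SE 0.10, adjusted p = 1.53e-07), so that it, DHRS9 and ALDH1A2 were all lower. RDH13, a mitochondrial member of the family, had 15.8 ± 0.894 CPM, against 8.15 ± 0.411 CPM (0.95, SE 0.08, adjusted p = 3.6e-10). CRABP2, of the 3 binding and clearance genes tested, rose by 0.51 (SE 0.09, adjusted p = 6.37e-05). The 20 responsive genes tested, the members among them included, were split, with 6 that rose and 6 that fell. Of those with a mean of at least 1 CPM, after DHRS3, ZNF703 (1.06, SE 0.12, adjusted p = 1.53e-07) rose and RAI14 (-0.84, SE 0.10, adjusted p = 3.34e-07) fell. These lists were chosen with results of these data known, and their counts are a description.

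**Figure D3:**
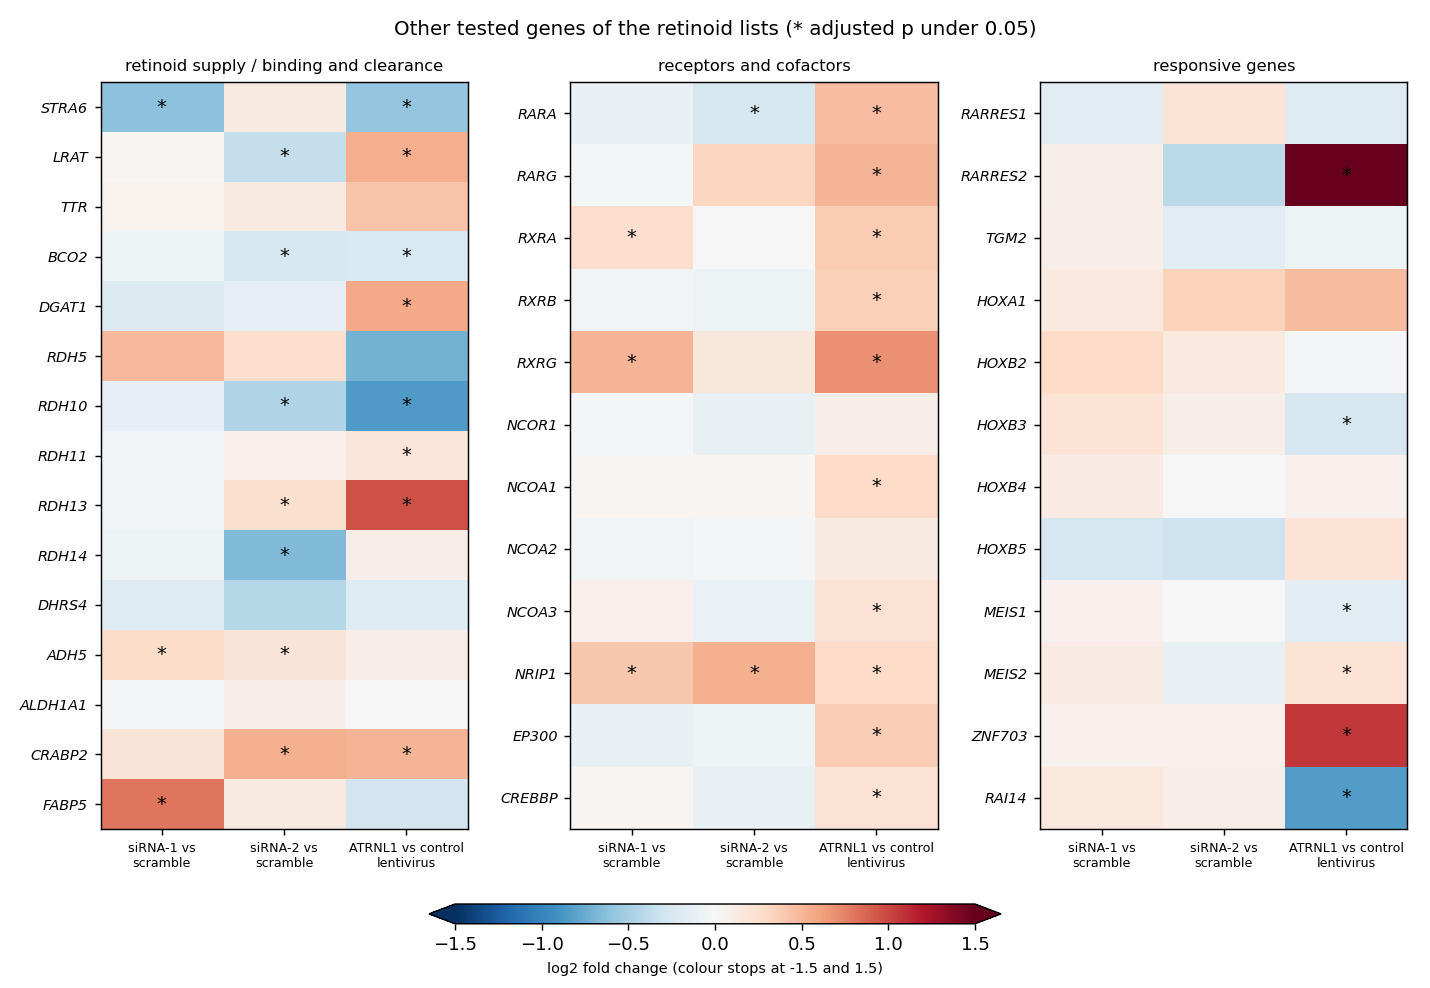
Log2 fold change (colour, red for higher) of 39 of the 41 other tested genes of the retinoid lists in 3 comparisons, with a star where the adjusted p was under 0.05. Most cells are pale and without a star under the siRNAs. There 6 and 9 of the 41 passed, beside 9.61% and 18.1% of all genes. The panel of receptors and cofactors is red throughout under the ATRNL1 lentivirus.

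Markers of chamber identity were read beside the fate factors. Of 11 ventricular markers, 9 rose and 0 fell with the ATRNL1 lentivirus, with a median log2 fold change of 0.53. Of 13 atrial markers tested, 1 rose and 7 fell, with a median of -0.19. In that comparison, against the control lentivirus, 19.1% of all genes rose and 18.0% fell. MYL2, the ventricular regulatory light chain, had 3806 ± 372 CPM with the ATRNL1 lentivirus and 2069 ± 270 CPM with the control lentivirus (0.88, SE 0.11, adjusted p = 2.73e-07). IRX2 (0.89), HEY2 (0.85) and LBH (1.20) rose as well. The gap junction gene GJA5 (-0.51, SE 0.11, adjusted p = 0.000389), the atrial myosin MYH6 (-0.63, SE 0.11, adjusted p = 4.67e-05), MYL4 (-0.40) and MYBPHL (-0.39) fell. With these, TBX5 fell and NR2F2 was not called. Under both siRNAs MYL2 rose (0.45 with siRNA-1 and 0.74 with siRNA-2), and so did MYH7 (0.49 and 0.83), while NPPA, the atrial natriuretic peptide, fell (-0.62 and -0.60). Of the 11 ventricular markers, 3 rose and 0 fell with siRNA-1, and 4 rose and 1, LBH (-0.24), fell with siRNA-2. The atrial list as a whole was split, with 2 genes that rose and 1 that fell with siRNA-1 and 3 that rose and 2 that fell with siRNA-2. Of all genes, 5.85% rose and 3.76% fell with siRNA-1, and 9.64% rose and 8.48% fell with siRNA-2. The summed level of the ventricular list was 15720 to 17000 CPM with the ATRNL1 lentivirus and 10080 to 11830 CPM with the control lentivirus. It was 8526 to 10200 CPM for siRNA-1 and 11340 to 11580 CPM for siRNA-2, against 6574 to 7783 CPM in scramble. The sum does not stand for each marker: in control lentivirus against scramble MYL2 (0.87) and MYH7 (0.83) rose, while 6 of the 11 fell and the median was -0.50. Of all genes, 30.3% rose and 33.2% fell there. Whether a change in the mix of cells had a part in the values of the 9 genes was not tested.

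The nearest relatives of the fate factors were counted too. Of 6 T-box genes of the heart, 3 rose with siRNA-1, 2 with siRNA-2 and 3 with the ATRNL1 lentivirus. Of all genes, 5.85%, 9.64% and 19.1% rose in these comparisons. TBX3 and TBX20 rose with siRNA-1 (0.28 and 0.24) and with siRNA-2 (0.44 and 0.27), against scramble libraries that both siRNAs share. They also rose with the ATRNL1 lentivirus against the control lentivirus (0.42 and 0.47). TBX2 rose with siRNA-1 (0.30) and TBX1 with the ATRNL1 lentivirus (0.57). TBX5 was the T-box gene that fell with the ATRNL1 lentivirus, where 18.0% of all genes fell. In control lentivirus against scramble, 0 of the 6 T-box genes rose and 4 fell, with a median log2 fold change of -0.53. Of all genes, 30.3% rose and 33.2% fell there. The summed T-box level was 874.5 to 1035 CPM with the ATRNL1 lentivirus, 772.2 to 776.6 CPM with the control lentivirus and 858.3 to 1032 CPM in scramble. NR2F6, the third COUP-TF family member, had 16.1 ± 0.505 CPM with the ATRNL1 lentivirus and 11.7 ± 0.502 CPM with the control lentivirus and rose by 0.47 (SE 0.08, adjusted p = 2.09e-05), while NR2F2 and NR2F1 were not called. NR2F2-AS1, the antisense neighbour of NR2F2 with which it shares no exonic base, was not called with either siRNA or with the ATRNL1 lentivirus.

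**Figure D4:**
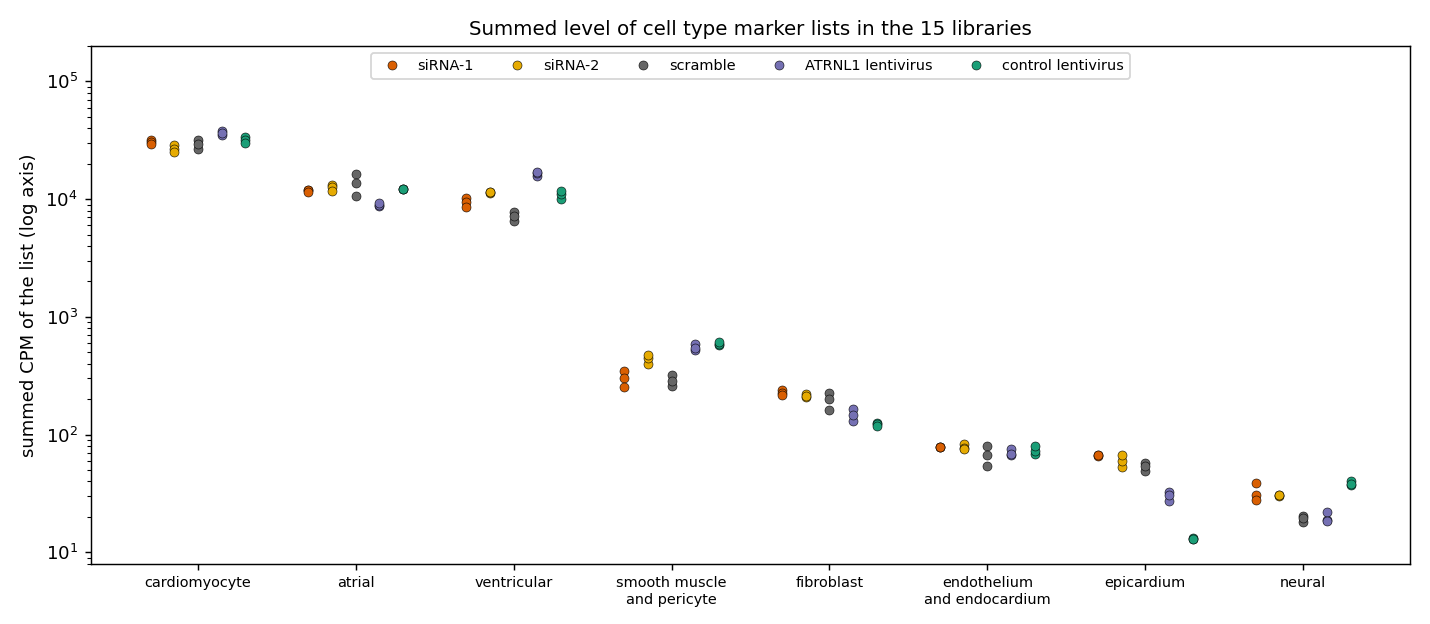
Summed level of 8 marker lists (vertical axis, CPM on a log scale) in the 15 libraries, coloured by group. Cardiomyocyte markers are within 24980 to 38040 CPM in all libraries, ventricular markers are highest with the ATRNL1 lentivirus, and the epicardial sum, most of which is KRT19, is lowest with the control lentivirus.

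Markers of other cells were followed as well. Smooth muscle and pericyte markers summed to 525 to 591 CPM with the ATRNL1 lentivirus and 582 to 606 CPM with the control lentivirus, against 256 to 346 CPM with siRNA-1, 401 to 477 CPM with siRNA-2 and 259 to 322 CPM in scramble. Fibroblast markers summed to 130 to 164 CPM with the ATRNL1 lentivirus and 119 to 124 CPM with the control lentivirus, against 217 to 239 CPM with siRNA-1, 210 to 222 CPM with siRNA-2 and 161 to 227 CPM in scramble. Endothelial and endocardial markers summed to 67.0 to 75.2 CPM with the ATRNL1 lentivirus and 68.7 to 80.2 CPM with the control lentivirus, against 77.9 to 78.7 CPM with siRNA-1, 75.0 to 82.5 CPM with siRNA-2 and 54.2 to 79.3 CPM in scramble. Of that list, PECAM1, CDH5 and VWF, which define endothelium, did not exceed 0.217 CPM in any library. Neural markers summed to 18.6 to 22.1 CPM with the ATRNL1 lentivirus and 37.5 to 40.2 CPM with the control lentivirus, against 28.1 to 38.6 CPM with siRNA-1, 29.9 to 30.6 CPM with siRNA-2 and 18.0 to 20.4 CPM in scramble. MAP2, a microtubule protein, made up most of the neural sum, at 16.8 ± 1.41 CPM with the ATRNL1 lentivirus and 36.3 ± 1.75 CPM with the control lentivirus. The control lentivirus libraries, which had the highest DHRS9 and ALDH1A2, also held the highest neural sums, in a range that overlapped that of siRNA-1. This sum does not stand for each marker. In control lentivirus against scramble, 2 of the 5 neural markers tested rose and 3 fell, with a median log2 fold change of -1.11. Of all genes, 30.3% rose and 33.2% fell in that comparison. The part of these lists in the differences between groups was not tested.

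For each of the 7 tested genes with a call, the genes of most similar pattern were found as the smallest root-mean-square difference of log2 CPM over the 15 libraries, each gene centred on its own mean, among 14031 genes. DHRS3 was nearest to the glycolytic enzyme ENO2 (0.12, where DHRS3 itself deviated by 0.87 from its mean) and then ENO1 (0.18). DHRS9 was nearest to the kinase gene STK38L (0.11, against its own 0.73) and to CYP39A1 (0.15). ALDH1A2 was nearest to CDC25A (0.14, against 0.47) and DYNC1I1 (0.15). CYP26B1 had IQCJ-SCHIP1 (0.15, against 0.53) and MHENCR (0.17). NR2F2 had PBX3 (0.06, against 0.20) and MYPN (0.07), RARB had RBMS1 (0.07, against 0.20) and DNAAF2 (0.08), and TBX5 had PSMB7 (0.06, against 0.15) and PEBP1 (0.07). For NR2F2, RARB and TBX5 the gene's own deviations were small as well, and how many other genes lay as close was not counted. Taken over the 5 group means in place of the libraries, ENO2 and STK38L were again among the nearest 2 of DHRS3 and DHRS9, and the nearest genes of the other 5 were different ones.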

How the data were processed

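The authors deposited 1 table of unnormalized read counts per gene, with whole numbers in 59429 rows and 15 library columns. The submitters' processing notes name STAR (2.7.9a), DESeq2 (1.30.1) and the GRCh 38 build without roles. Neither the counting program nor its use of strand is given. Rows matched GENCODE release 29 identifiers except 649 with a bare number, which were left out (0.00157% to 0.00437% of counts per library). Column names gave the group of a library and not which labelled sample it was, so library numbers follow column order and pair nothing. Within groups, libraries differed by more than counting noise (chi-square per degree of freedom at least 5.84), so none was merged. Library preparation removed ribosomal RNA, per the labels' protocols, whereas the molecule field names polyA RNA.

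Genes were filtered with filterByExpr by group, scaled by TMM and fitted in edgeR 4.0.16 under R 4.3.3 as 1 quasi-likelihood model of 5 group means over all libraries, with Benjamini-Hochberg adjustment over the 24659 genes tested and calls at an adjusted p under 0.05. The biological coefficient of variation was 8.24%. The fit was tested on simulated data first. Alternatives used DESeq2 size factors in edgeR, library size alone, other filters, DESeq2 1.42.0, limma 3.58.1 with voom and quality weights, only the groups compared, each library left out, and each scramble library as the sole control. Per-kilobase levels use annotated exon length.

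The 9 genes and all lists were chosen with earlier results of these data known. Named besides them were, per list and comparison, at most 4 called genes with a mean of at least 1 CPM and the largest fold change, plus the 2 genes most alike in pattern to each called member. SLN, BMP10, MYL7 and ATRNL1 served as checks of the labels, and other marker genes are given where a list's level is described. The genes listed as rising or falling with an siRNA beyond that rule were chosen after their values were seen. Some genes that the rule names are not reported here.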

Additional observations from a re-analysis of the deposited data

Results flagged for a closer look

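The effects of overexpression and knockdown, each against its own control, differed by the test of the difference for 4 of the 8 tested genes. Of all genes tested, 32.0% differed. The difference, overexpression minus mean knockdown on the log2 scale, was 2.43 for DHRS3, -0.87 for DHRS9, -1.28 for ALDH1A2 and 0.30 for RARB. The lentiviral and siRNA arms also differ in delivery, in puromycin selection and in ATRNL1 level in their controls, and the part of these in the difference cannot be told apart.

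The effects of both siRNAs, which share the scramble libraries, differed for 4 genes by the direct contrast of siRNA-2 with siRNA-1. That contrast called 10.1% of all genes. The log2 fold change was -0.32 for TBX5, 0.24 for RARB, -0.66 for CYP26B1 and -0.71 for DHRS9. ATRNL1 itself was lower with siRNA-2 (4.99 ± 0.406 CPM) than with siRNA-1 (9.16 ± 0.986 CPM; SD, n = 3 each), and no member moved beyond the threshold in the same direction against scramble with both, although DHRS3 did so in 4 of 13 alternatives and NR2F2 in 3. Whether the depth of the knockdown had a part in these differences was not tested.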

How the results depend on the processing

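For ATRNL1 lentivirus against control lentivirus, RARB, DHRS3, DHRS9 and ALDH1A2 kept their direction and call in all 13 alternatives, and TBX5 lost its call in 5. The siRNA counts depended on the tool and on the scramble libraries. With limma voom and quality weights, siRNA-1 against scramble called 7 of the members and 13 other retinoid genes, in place of 3 and 6, and siRNA-2 called 5 and 19, in place of 1 and 9. Of all 24659 genes, that tool called 7326 with siRNA-1 and 9994 with siRNA-2, in place of 2370 and 4470. Against scramble library 1 alone, siRNA-1 called 0 and 0 and siRNA-2 called 4 other genes. Against library 3 alone, siRNA-1 called 1 member and siRNA-2 again 4 other genes. For siRNA-2, 2 members were called by library size only, with no filter, with at least 1 CPM in 3 libraries, and by DESeq2. Between the siRNAs, 17 other genes were called in place of 10 when only these groups were fitted. Leaving out 1 library at a time gave, for siRNA-1, 1 to 4 members and 3 to 8 other genes, for siRNA-2, 1 to 2 and 4 to 8, and between the siRNAs, 2 to 4 and 2 to 5. Fits with fewer libraries also have fewer degrees of freedom. The cause of these shifts was not tested.

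Only uncalled values changed sign. Leaving out libraries, NR2F1 ran from -0.20 to 0.21 (siRNA-1), RARB from -0.0016 to 0.11 (siRNA-2) and NR2F2 from -0.13 to 0.049 (ATRNL1 lentivirus). Against scramble library 1 alone, DHRS3 was 0.009 (siRNA-1), NR2F2 -0.086 and RARB -0.042 (siRNA-2), and TBX5 -0.076 (control lentivirus). With library 2, NR2F1 was 0.49 (siRNA-1) and 0.17 (siRNA-2). By library size only, TBX5 was -0.11 and RARB -0.048 (control lentivirus against scramble). No paired analysis was possible because the numbers 1 to 3 that end the column names in every group are tied to no labelled sample, culture or batch. Depth limits NR2F1 and CYP26A1, and a knockdown to partial levels limits what the siRNA comparisons can show.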
